A study of Mus musculus with 12 samples.

Results

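The genes described here encode the nuclear subunits of the mitochondrial respiratory chain and of the ATP synthase, as measured in mouse ovaries that differ in the forkhead transcription factor Foxo3. They were chosen by symbol: names that begin with Nduf and a, b, c, s or v followed by a digit (complex I), with Uqcr (complex III), with Cox and a digit from 4 to 8 (complex IV), or with Atp5 (the ATP synthase, complex V). The array carries 111 probes of 74 such genes. A probe was kept where its detection p-value was under 0.05 on at least 3 arrays, which left 97 probes of 71 genes out of 22511 probes kept in all. These were 47 probes of 34 genes of complex I, 7 of 6 genes of complex III, 19 of 15 genes of complex IV and 24 of 16 genes of complex V. The rule itself uses no measured change, but it was set with earlier results of these data known.

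Total RNA of whole ovaries came from FVB/N female mice at 14 days (dpn in the labels) and was hybridised to 12 Illumina bead arrays, 3 for each of 4 groups. NoTg Foxo3+/- ovaries carried no transgene and were heterozygous for Foxo3, Tg Foxo3+/- ovaries added the transgene, NoTg Foxo3-/- ovaries were null for Foxo3 without it, and Tg Foxo3-/- ovaries were null with it. No group has 2 intact Foxo3 alleles, so the heterozygote is the reference throughout. From the series title the transgene makes a constitutively active Foxo3 in oocytes, and which promoter drives it is unknown here. The labels do not say whether the 3 arrays of a group are 3 animals or whether ovaries were pooled. The p-values set group differences against the scatter between these arrays. Part of that scatter may be technical, so the p-values may not carry over to animals.

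Complex I oxidises NADH and passes its electrons to ubiquinone, complex III passes them on to cytochrome c, and complex IV reduces oxygen. Protons pumped by these complexes drive the ATP synthase. Growing oocytes accumulate mitochondria and draw on oxidative phosphorylation of pyruvate that granulosa cells supply. Most subunits are encoded in the nucleus, and the nuclear genes are known to be controlled in common by NRF1, the ETS family factor GABP and YY1. The subunits encoded in mitochondrial DNA fall outside the symbols used here.

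Promoter sequence is a property of these genes that the choice of symbols did not use. RefSeq promoters (assembly GRCm38.p6, 250 bases before to 50 bases after each gene's start) were matched for 59 of the 71 genes, giving 64 windows of 300 bases, some of which overlap within a gene. The motif of NRF1, GCGCA and GCGC parted by 1 base, searched on both strands like the others, was present in 15 of the 64 windows (23.4%), against 4.6% of the 32851 promoters in the RefSeq table. CCGGAAG, an ETS core, was present in 14 windows (21.9% against 8.9%), and the YY1 motif AAGATGGC in 10 (15.6% against 2.7%). Matches of the 3 motifs overlapped in 0 of the 64 windows, and base composition was not matched between the sets. The 120 bases before the start are shown for 6 genes that were called in the comparisons below, to show promoters with and without a match. Ndufa9 and Atp5c1, also called, had no match in that stretch and are not shown, so the 6 do not give the share with a match. Capitals mark the NRF1 match in Ndufa5 and Ndufa11 and the ETS match, read on the opposite strand, in Cox6b1. Lower case alone means that these letters are not in this stretch.
Ndufa5, chr6:24527691-24527810, - strand: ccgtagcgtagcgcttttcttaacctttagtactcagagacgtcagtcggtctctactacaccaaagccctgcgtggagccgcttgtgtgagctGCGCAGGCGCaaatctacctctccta
Ndufb2, chr6:39592445-39592564, + strand: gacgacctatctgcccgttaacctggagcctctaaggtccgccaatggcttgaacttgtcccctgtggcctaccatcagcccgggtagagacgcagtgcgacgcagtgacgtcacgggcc
Ndufb5, chr3:32736943-32737062, + strand: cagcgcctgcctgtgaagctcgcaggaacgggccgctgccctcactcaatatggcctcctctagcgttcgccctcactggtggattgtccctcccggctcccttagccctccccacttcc
Ndufa11, chr17:56717642-56717761, + strand: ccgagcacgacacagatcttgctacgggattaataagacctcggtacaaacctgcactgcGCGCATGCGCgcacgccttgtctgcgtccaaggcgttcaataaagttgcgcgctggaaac
Cox6b1, chr7:30626115-30626234, - strand: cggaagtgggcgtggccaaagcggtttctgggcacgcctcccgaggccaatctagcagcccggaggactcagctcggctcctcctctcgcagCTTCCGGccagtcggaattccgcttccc
Cox6b2, chr7:4753095-4753214, - strand: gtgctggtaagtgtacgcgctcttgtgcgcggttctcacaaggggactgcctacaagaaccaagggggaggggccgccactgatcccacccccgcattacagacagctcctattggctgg

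Each array detected between 20072 and 22015 probes. The labelled tissue was checked on marker genes: 9 of 10 oocyte genes and 7 of 8 granulosa genes were detected on all 12 arrays, and none of either list was undetected on every array. Foxo3 has 3 probes, of which only ILMN_2501865 was kept. It ranged from 7.81 to 8.44 on the log2 scale in the NoTg Foxo3+/- arrays and from 8.18 to 8.65 in the NoTg Foxo3-/- arrays, so it was not lower in the null. It read 7.89, 7.87 and 8.13 in Tg Foxo3+/- and 8.29, 8.37 and 8.20 in Tg Foxo3-/-. Both sets lay inside the range of the same genotype without the transgene, so it showed no rise with the transgene. Whether that probe lies in the deleted stretch or reads the transgene is not stated in the labels. It therefore checks neither the genotype labels nor the transgene labels. The array background, taken as the median raw intensity of probes with a detection p above 0.5, was 68.2 ± 3.20 (SD, n = 6) on transgenic arrays and 79.4 ± 1.86 (SD, n = 6) on the others, without overlap (exact permutation test, two-sided, p = 0.00216, 924 assignments).

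Signal from the subunit probes was high. Of the 97 probes, 88 were detected on all 12 arrays and 9 on 5 to 11 arrays. Their mean log2 intensity over the arrays had a median of 11.02 and quartiles of 7.90 and 12.15, against a median of 7.10 for all tested probes. The brightest probe of complex I was Ndufa13 (12.92), also known as GRIM-19, and that of complex III was Uqcrh (12.91), the hinge protein. Cox4i1 (13.00), the widely expressed form of subunit 4, was the brightest of complex IV. Atp5g3 (14.55), which encodes the c subunit of the membrane rotor, was the brightest of the ATP synthase. Brightness depends on the probe's own sequence as well as on the transcript, so these values rank signals and not amounts of RNA between genes. Atp5g3 also varied little, reading 14.55, 14.54 and 14.55 in NoTg Foxo3+/-, 14.49, 14.61 and 14.61 in Tg Foxo3+/-, then 14.61, 14.53 and 14.59 in NoTg Foxo3-/- and 14.52, 14.56 and 14.43 in Tg Foxo3-/-. Ndufa4 is counted here with complex I after its name, although its protein is known to be bound to complex IV, and Ndufs5-ps, which the symbols also caught, is a transcribed pseudogene.

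The 14 probes left out were detected on 0 arrays in 12 cases and on 1 array in 2 cases, Atp5o (ILMN_1237733) and Ndufc2 (ILMN_1251341), whose genes each kept at least 1 other probe. Ndufs1, the largest iron-sulfur subunit of complex I, Uqcrfs1, the Rieske iron-sulfur protein of complex III, and Cox7b2 had no probe detected on 3 arrays and are not described further. Just inside the limit were Cox8b, detected on 5 arrays with a mean log2 intensity of 4.88, and the dimmer Ndufb10 probe (ILMN_2691261), detected on 6 arrays with 4.95.

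One array stood apart from the other 11 in these genes. In Tg Foxo3+/- replicate 1 the median subunit probe lay 0.348 below its own mean over the 12 arrays on the log2 scale (median deviation -0.348), whereas the other arrays had medians between -0.038 and 0.089. It gave the lowest of the 12 values for 51 of the 97 subunit probes, and for 9.99% of all tested probes. The median deviation was negative in every complex, at -0.376 in complex I, -0.388 in complex III, -0.469 in complex IV and -0.207 in complex V. Complex III was split, with 42.9% of its 7 probes above their own means there. That share was 12.8% in complex I, 10.5% in complex IV and 29.2% in complex V. Probes of any gene at least as bright as the subunits' lower quartile (8954 probes) had a median deviation of 0.016 on the same array. Related gene lists had median deviations there of -0.064 for assembly factors, -0.027 for outer membrane and import genes and -0.12 for complex II, and of 0.21 for the 3 cytochrome c probes. On that array the oocyte marker list stood at -0.34 (other arrays -0.192 to 0.234) and the erythrocyte list at -1.032 (other arrays down to -0.43). The granulosa list stood at 0.35 (other arrays up to 0.173) and the muscle list at 0.636 (others up to 0.495). The theca and steroidogenic list, at 0.505, was passed by other arrays (up to 0.561). The surface epithelium (0.167), stroma (0.139) and macrophage (0.074) lists also lay within the range of the other arrays. The part of these lists in the low subunit values was not tested. The main counts and medians that use the Tg Foxo3+/- group are therefore given with and without this array.

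**Figure D1:**
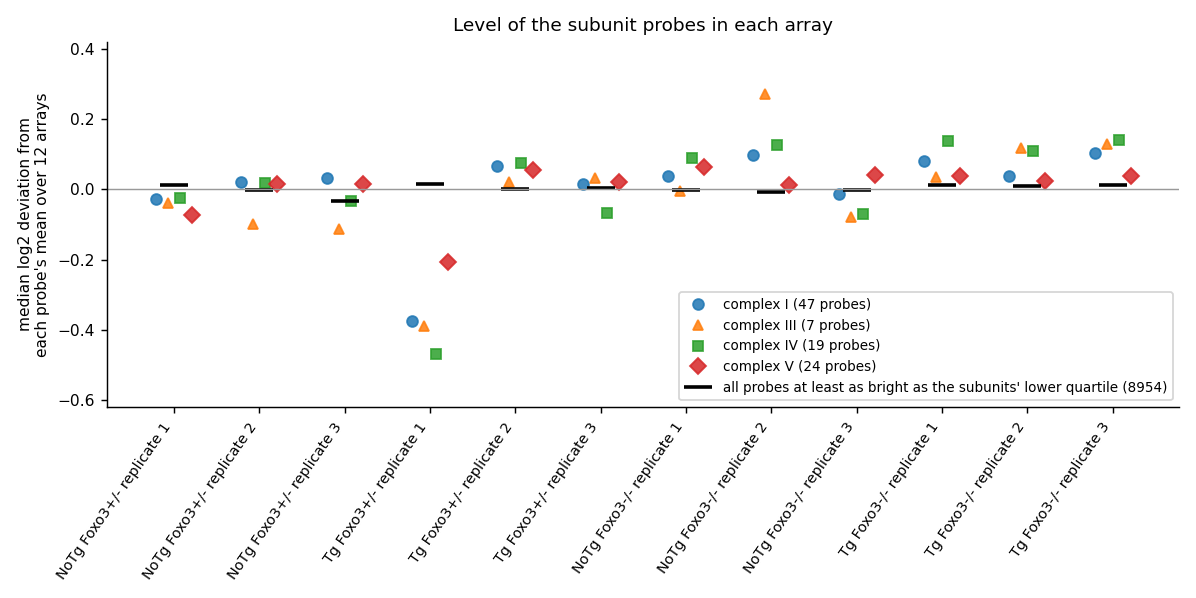
Median log2 deviation of the subunit probes of each complex from their own means, for each of the 12 arrays. Black bars give the same median for all 8954 bright probes, and Tg Foxo3+/- replicate 1 is the array where all 4 complexes lie below -0.2.

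The question asked of the transgene is how an active Foxo3 in oocytes alters these genes in the ovary. Averaged over the 2 Foxo3 genotypes, 5 of the 97 subunit probes were lower with the transgene and 0 were higher, against 2.94% of all 22511 tested probes called lower and 3.05% called in either direction. A call is an adjusted p under 0.05 in limma, Benjamini-Hochberg over all tested probes. The 5 were Ndufa5, Ndufb2, Ndufb9 and Ndufb5 of complex I and Atp5a1 of the ATP synthase, with falls of 1.57-fold to 1.80-fold. Of all the subunits, 53 of 97 probes lay above 0 (57.8% of all tested probes did) and the median log2 change was 0.03, beside 0.03 over all tested probes. Without Tg Foxo3+/- replicate 1, 63 lay above 0 and the median was 0.058, beside 0.022 over all tested probes.

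Ndufa5, an accessory subunit of the peripheral arm of complex I, showed the widest fall. Its probe ILMN_2691460 read 6.30, 6.39 and 7.0 in NoTg Foxo3+/-, 5.19, 5.56 and 5.90 in Tg Foxo3+/-, then 6.52, 6.78 and 6.45 in NoTg Foxo3-/- and 6.21, 5.98 and 5.50 in Tg Foxo3-/-. Every transgenic array lay below every array without the transgene, the averaged log2 change being -0.85 (SE 0.16, adjusted p = 0.00676), a 1.8-fold fall.

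Ndufb2, Ndufb5 and Ndufb9 are accessory subunits of the membrane arm of complex I. Ndufb2 (ILMN_2636435) read 7.31, 7.38 and 8.06 in NoTg Foxo3+/-, 6.46, 7.01 and 6.92 in Tg Foxo3+/-, then 7.60, 7.60 and 7.62 in NoTg Foxo3-/- and 7.08, 6.87 and 6.93 in Tg Foxo3-/-. The NoTg Foxo3-/- arrays sat close together and above all 6 transgenic arrays, and the averaged change was -0.72 (SE 0.14, adjusted p = 0.00652). Ndufb5 (ILMN_2617335) read 9.0, 9.39 and 9.81 in NoTg Foxo3+/-, 8.45, 8.85 and 8.86 in Tg Foxo3+/-, then 9.34, 9.35 and 9.11 in NoTg Foxo3-/- and 8.75, 8.64 and 8.48 in Tg Foxo3-/-. Its transgenic values ended at 8.86 and the others began at 9.0, with an averaged change of -0.66 (SE 0.12, adjusted p = 0.00648). Ndufb9 (ILMN_2605004) read 8.25, 8.47 and 8.58 in NoTg Foxo3+/-, 7.24, 7.69 and 7.61 in Tg Foxo3+/-, then 8.35, 7.76 and 8.03 in NoTg Foxo3-/- and 7.76, 7.48 and 7.55 in Tg Foxo3-/-. The highest transgenic array and the lowest array without the transgene met at 7.76, both of them null for Foxo3, and the averaged change was -0.68 (SE 0.12, adjusted p = 0.00439).

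Atp5a1, the alpha subunit of the catalytic head of the ATP synthase, read 9.0, 9.12 and 9.88 in NoTg Foxo3+/-, 8.72, 8.77 and 8.95 in Tg Foxo3+/-, then 9.28, 9.28 and 9.19 in NoTg Foxo3-/- and 8.52, 8.53 and 8.37 in Tg Foxo3-/- with probe ILMN_2633229. All transgenic arrays were at or below 8.95 and the others at or above 9.0, and the averaged change was -0.65 (SE 0.12, adjusted p = 0.00712). Transgenic arrays lay entirely below the others for 1.87% of all tested probes and for 5 of the 97 subunit probes. These were the called probes other than Ndufb9, whose ranges touched, and 1 probe of Ndufs4 (ILMN_2640944), which was not called. No call among the 5 was lost when any single array was left out. Under median scaling in place of quantile normalization only Ndufa5 was still called, the other 4 having adjusted p between 0.0585 and 0.115. Leaving out Tg Foxo3+/- replicate 1 added 3 probes called higher, both probes of Ndufa3, an accessory subunit of complex I, and Atp5l, subunit g of the ATP synthase.

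**Figure D2:**
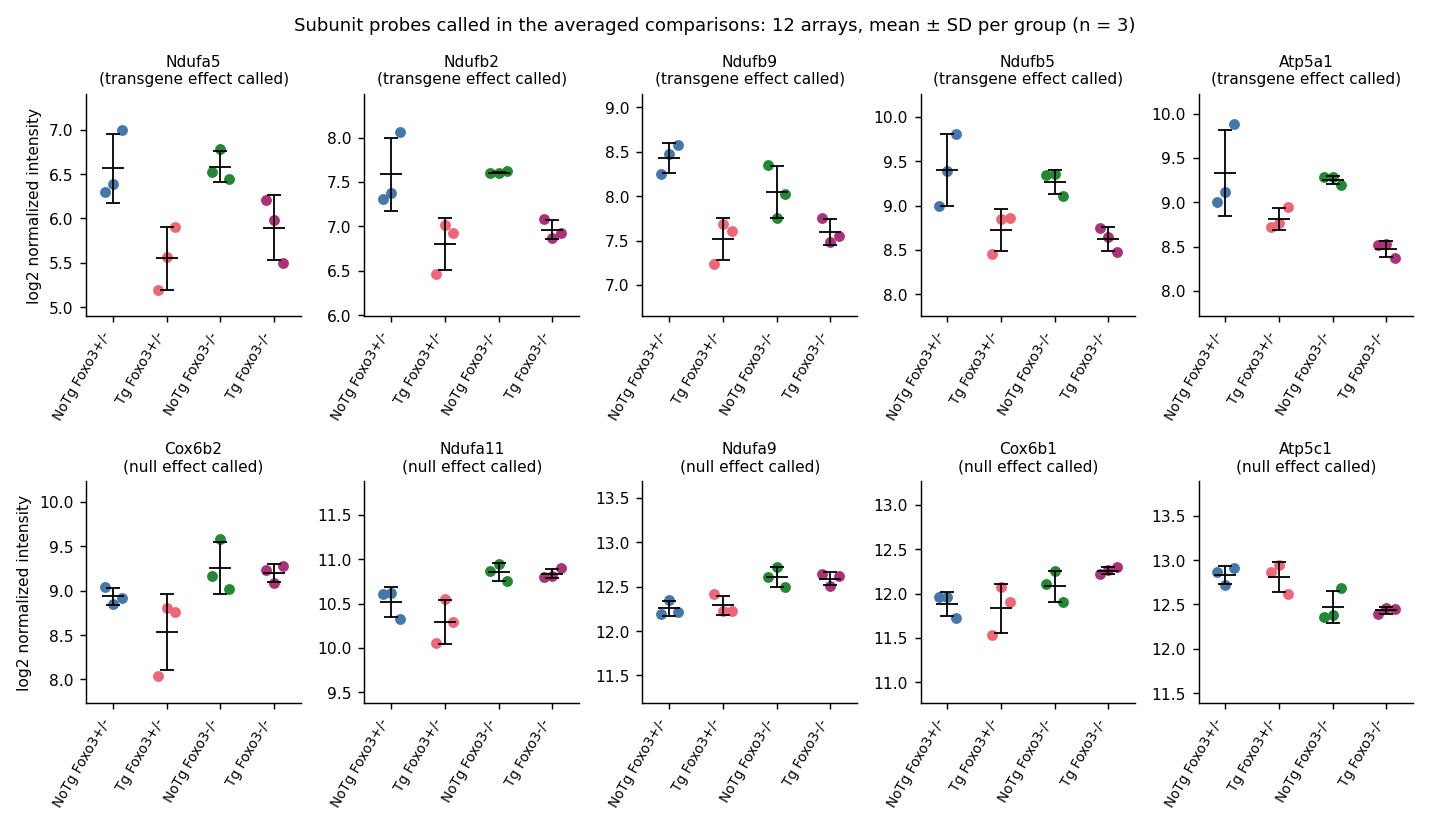
Log2 normalized intensity of the 10 subunit probes called in the averaged comparisons, with 1 point per array and the mean ± SD of each group (n = 3); all panels span the same height. In the upper row the 6 transgenic arrays lie below the other 6, except for Ndufb9, where the ranges meet at 7.76, and in the lower row the null groups lie above (Cox6b2, Ndufa11, Ndufa9, Cox6b1) or below (Atp5c1) the heterozygous groups on average.

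All 5 lower probes were among the dimmer probes of the set. Of the 48 subunit probes with a mean under 11.02, 5 were called lower (10.4%), against 3.07% of all tested probes under that value. Of the 49 brighter subunit probes, 0 were called lower, against 1.3% of all tested probes in that range, and the largest fall among them was -0.29. The array background, lower on transgenic arrays, moved with the same contrast. With it as a covariate the changes of the 5 probes lay between -1.19 and -0.35 and none was called (adjusted p = 1 for each). That covariate separates the transgenic arrays (65.4 to 74.2) from the others (76.3 to 81.2) without overlap, so the background and the transgene cannot be told apart in such a fit.

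**Figure D3:**
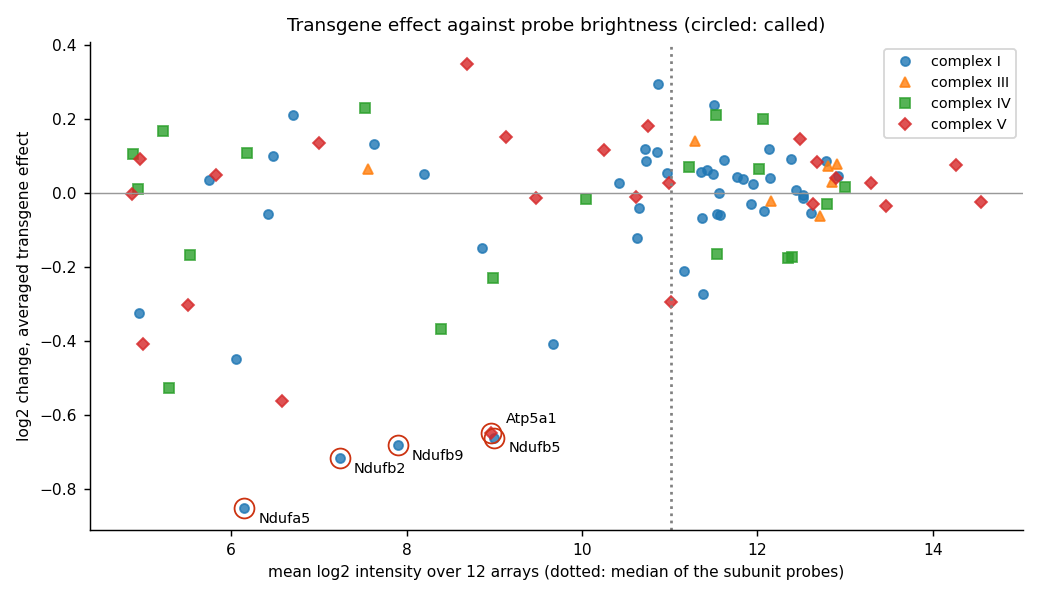
Averaged transgene effect (log2 change) of the 97 subunit probes against their mean log2 intensity over 12 arrays. The 5 circled probes, called lower, lie between 6.15 and 9.0, left of the dotted median of 11.02.

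The 3 largest rises in the averaged transgene effect were not called. They were 0.35 for the dimmer probe of Atp5j (adjusted p = 0.481), which encodes coupling factor 6, and 0.29 and 0.24 for the probes of Ndufa3 (adjusted p = 0.267 and 0.442). Ndufa3 read 10.78, 10.59 and 10.49 in NoTg Foxo3+/-, 10.28, 11.15 and 11.01 in Tg Foxo3+/-, then 10.79, 10.97 and 10.70 in NoTg Foxo3-/- and 11.11, 11.27 and 11.27 in Tg Foxo3-/- with probe ILMN_2772241. Tg Foxo3+/- replicate 1 was the lowest of the 12 arrays in it, apart from its own group.

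Within the heterozygotes the transgene left 1 of 97 subunit probes called lower, Ndufb9, and 0 higher, against 0.36% of all tested probes called lower and 0.364% called either way. Its log2 change was -0.92 (SE 0.17, adjusted p = 0.0392), a 1.89-fold fall with no overlap between the groups (7.84% of all tested probes were lower without overlap). That call was lost in 8 of the 12 fits that left out 1 array, with adjusted p up to 0.141 (without NoTg Foxo3+/- replicate 3), and without Tg Foxo3+/- replicate 1 it was -0.782 (adjusted p = 0.107). The widest change in that comparison, that of Ndufa5 at -1.01 (SE 0.23, adjusted p = 0.0723), was not called. Counting directions, 61 of 97 subunit probes lay below 0 (45.1% of all tested probes did) and the median was -0.03. Without Tg Foxo3+/- replicate 1, 37 lay below 0 and the median was 0.047. Under median scaling, which moved the median of all tested probes to 0.13, 34 lay below 0.

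Within the nulls the transgene left 0 of 97 subunit probes called in limma, against 0.191% of all tested probes. At an unadjusted p under 0.05, 4 were higher and 8 lower, against 4.09% and 6.44% of all tested probes. By direction, 56 of 97 lay above 0 (54.2% of all tested probes did). Under median scaling, which moved the median of all tested probes to -0.097, 35 lay above 0 and the subunit median was -0.048. The smallest p-values belonged to Atp5a1 at -0.78 (SE 0.18, adjusted p = 0.0731), Ndufb5 at -0.64 (SE 0.18, adjusted p = 0.139), Ndufb2 at -0.64 (SE 0.19, adjusted p = 0.174) and Ndufa5 at -0.69 (SE 0.23, adjusted p = 0.247), all among the probes called in the average. Next came 1 probe of Ndufs4 (ILMN_2663694) at -0.49 (SE 0.18, adjusted p = 0.294). Atp5a1 passed the threshold without NoTg Foxo3+/- replicate 3 (adjusted p = 0.0101). That array is in neither of the compared groups, and the log2 change stayed at -0.78. Only the spread estimated over all groups and the adjustment differed.

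The array holds 2 or more tested probes for 21 of the 71 genes, 18 with 2, 1 with 3 and 2 with 4. Probes of a gene disagreed in the direction of the averaged transgene effect in 10 of the 21 genes and of the averaged null effect in 7. Over all 21 genes the median spread between the probes of a gene was 0.08 for the transgene effect and 0.15 for the null effect, beside a median standard error of 0.11 for 1 probe in the transgene effect. The 6 genes with the widest transgene spreads, from 0.24 to 0.96, were all among the 10 whose probes disagreed in direction. They are described next, and since they were picked for those gaps, no test is given.

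In Ndufa5, the brighter probe (ILMN_1216007) read 10.66, 10.85 and 10.52 in NoTg Foxo3+/-, 9.99, 10.98 and 11.11 in Tg Foxo3+/-, then 10.81, 11.26 and 10.68 in NoTg Foxo3-/- and 11.06, 11.19 and 11.11 in Tg Foxo3-/-. Its averaged transgene effect was 0.11 beside -0.85 for the probe described above, although the array annotation assigns both to the same transcript accession. The dim probe minus the bright probe ranged from -4.48 to -3.51 on the arrays without the transgene and from -5.61 to -4.80 on the transgenic arrays. Atp5a1 shows the same kind of split. Its dimmer probe (ILMN_2570875) read 6.85, 6.97 and 7.11 in NoTg Foxo3+/-, 6.82, 7.24 and 6.84 in Tg Foxo3+/-, then 6.94, 6.66 and 7.10 in NoTg Foxo3-/- and 7.04, 7.08 and 7.41 in Tg Foxo3-/-, an averaged effect of 0.13 against -0.65 for the brighter one, and these probes were designed on different transcript records. So in both genes with a called fall and a second tested probe, the other probe had a change above 0 that was not called. The other probe of Ndufb2 was detected on 0 arrays, and Ndufb5 and Ndufb9 have 1 probe each, so 3 of the 5 falls have no second measurement.

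Ndufs4, an accessory subunit of the peripheral arm, has 4 tested probes with averaged transgene effects of 0.12, -0.27, -0.21 and -0.41 from the brightest to the dimmest. None was called, the smallest adjusted p being 0.0585 for ILMN_2640944. Atp5pb, subunit b of the peripheral stalk, has 4 probes between -0.30 and 0.12, and the lowest of them is a dim probe with a mean of 5.51. The probes of Ndufb8 stood at 0.21 (dimmer) and -0.05 (brighter), and those of Cox6b2 at 0.01 (dimmer) and -0.23 (brighter). The Cox6b2 gap fell to 0.041 without Tg Foxo3+/- replicate 1. At the other end, the probes of Cox6b1 gave 0.06 and 0.07 and those of Cox6a1, the widely expressed form of subunit 6a, gave 0.20 and 0.21.

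**Figure D4:**
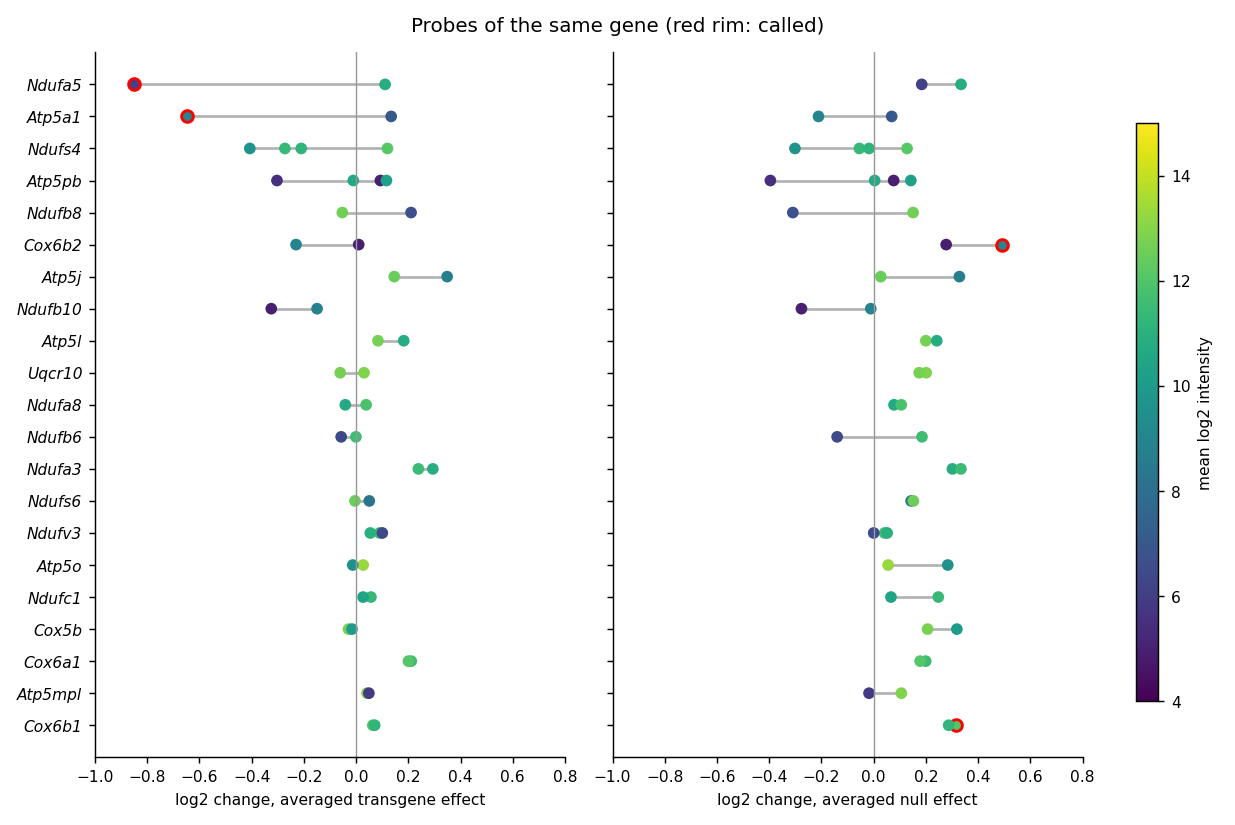
Averaged transgene effect (left) and averaged null effect (right), as log2 changes, for the 21 genes with 2 or more tested probes, ordered by the spread in the left panel; 1 point is 1 probe, shaded by its mean log2 intensity, and a red rim marks a call. Ndufa5 and Atp5a1 carry the widest gaps on the left, 0.96 and 0.78.

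Loss of the second Foxo3 allele was compared in the same way. Averaged over the transgene states, 4 of 97 subunit probes were higher in the null and 1 was lower, against 4.13% and 4.22% of all tested probes (8.34% in either direction). Those called higher were Ndufa11 and Ndufa9 of complex I and Cox6b1 and Cox6b2 of complex IV, by 1.24-fold to 1.41-fold. Atp5c1 of the ATP synthase was called lower. Of the 97 probes, 64 lay above 0 (51.5% of all tested probes did), with a median log2 change of 0.08 against 0.01 for all tested probes. Without Tg Foxo3+/- replicate 1 the median was 0.022 and 58 lay above 0, Cox6b1 was no longer called and Cox6c was called lower.

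Ndufa11, a membrane arm subunit of complex I, read 10.61, 10.62 and 10.32 in NoTg Foxo3+/-, 10.05, 10.55 and 10.29 in Tg Foxo3+/-, then 10.87, 10.95 and 10.75 in NoTg Foxo3-/- and 10.80, 10.81 and 10.90 in Tg Foxo3-/-. Every null array was above every heterozygous array, and the averaged change was 0.44 (SE 0.09, adjusted p = 0.00652). Ndufa9, which sits where the arms of complex I meet, read 12.19, 12.35 and 12.22 in NoTg Foxo3+/-, 12.42, 12.23 and 12.23 in Tg Foxo3+/-, then 12.61, 12.72 and 12.50 in NoTg Foxo3-/- and 12.64, 12.51 and 12.62 in Tg Foxo3-/-. Its null arrays began at 12.50 and its heterozygous arrays ended at 12.42, an averaged change of 0.33 (SE 0.07, adjusted p = 0.00764). These 2 were the subunit probes whose null arrays lay entirely above the heterozygous ones (2.45% of all tested probes did), and no fit that left out 1 array lost either call.

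Cox6b1 and Cox6b2 encode the widely expressed and the testis form of subunit 6b of cytochrome c oxidase. Cox6b2 (ILMN_2764551) read 9.04, 8.85 and 8.92 in NoTg Foxo3+/-, 8.04, 8.80 and 8.76 in Tg Foxo3+/-, then 9.17, 9.58 and 9.02 in NoTg Foxo3-/- and 9.23, 9.09 and 9.28 in Tg Foxo3-/-. The low value was Tg Foxo3+/- replicate 1, the lowest null array (9.02) lay just below the highest heterozygous array (9.04), and the averaged change was 0.49 (SE 0.13, adjusted p = 0.0267). Without that array it was still called, but it was lost in 5 other fits that left out 1 array, with adjusted p of 0.0579 (NoTg Foxo3+/- replicate 2 left out), 0.0504 (NoTg Foxo3+/- replicate 3), 0.0584 (NoTg Foxo3-/- replicate 2), 0.0654 (Tg Foxo3-/- replicate 1) and 0.0682 (Tg Foxo3-/- replicate 3). Cox6b1 (ILMN_1254971) read 11.96, 11.96 and 11.73 in NoTg Foxo3+/-, 11.53, 12.07 and 11.90 in Tg Foxo3+/-, then 12.11, 12.25 and 11.90 in NoTg Foxo3-/- and 12.22, 12.27 and 12.30 in Tg Foxo3-/-, with overlapping genotypes and an averaged change of 0.31 (SE 0.09, adjusted p = 0.0424). Its call was lost in 10 of 12 such fits, with an adjusted p of 0.0971 without NoTg Foxo3+/- replicate 3 and of 0.0622 without Tg Foxo3+/- replicate 1. The second probe of Cox6b1 changed by 0.29 (SE 0.09, adjusted p = 0.0635) and that of Cox6b2 by 0.28 (SE 0.13, adjusted p = 0.191), in the same direction but not called.

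Atp5c1, the gamma subunit that turns inside the catalytic head, read 12.87, 12.72 and 12.91 in NoTg Foxo3+/-, 12.87, 12.94 and 12.62 in Tg Foxo3+/-, then 12.36, 12.38 and 12.68 in NoTg Foxo3-/- and 12.39, 12.46 and 12.45 in Tg Foxo3-/-. The highest null array, NoTg Foxo3-/- replicate 3, overlapped the lowest heterozygous array, and the averaged change was -0.37 (SE 0.08, adjusted p = 0.00771). Leaving out 1 array at a time did not end that call.

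Under median scaling Ndufa11 and Ndufa9 were still called and the other 3 were not (adjusted p = 0.101 to 0.143). Within complex I, 14 of 16 Ndufa probes lay above 0 in the averaged null effect and 2 were called, whereas 6 of 13 Ndufb probes and 5 of 10 Ndufs probes lay above 0 and 0 of either were called. By complex the median null effect was 0.08 in complex I, 0.12 in complex III, 0.11 in complex IV and 0.04 in complex V. Without Tg Foxo3+/- replicate 1 the complex medians were 0.025, 0.103, 0.076 and 0.011, in that order, and 12 Ndufa, 6 Ndufb and 5 Ndufs probes lay above 0.

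Without the transgene, the null against the heterozygote gave 0 of 97 subunit probes called in limma, against 0.911% of all tested probes, and 3 higher and 4 lower at an unadjusted p under 0.05 (7.23% and 7.44% of all tested probes). The smallest p-values were for Atp5h, a peripheral stalk subunit, at -0.48 (SE 0.13, adjusted p = 0.092), Ndufa9 at 0.35 (SE 0.10, adjusted p = 0.0926) and Atp5c1 at -0.36 (SE 0.11, adjusted p = 0.13). Of 97 probes, 57 lay above 0 (51.1% of all tested probes did), and 80 under median scaling, which moved the median of all tested probes to 0.139. The next smallest p-values were for Ndufb11 at 0.52 (SE 0.19, adjusted p = 0.213) and Ndufa11 at 0.34 (SE 0.13, adjusted p = 0.221).

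With the transgene, 1 of 97 was called higher, Ndufa11 at 0.54 (SE 0.13, adjusted p = 0.0345), and 0 lower, against 1.49% called higher and 2.18% called in all. In this comparison 70 of 97 subunit probes lay above 0 (49.8% of all tested probes did) with a median of 0.13 against -0.00 for all tested probes. Without Tg Foxo3+/- replicate 1, 50 of 97 lay above 0, the median was 0.029, and Ndufa11 was 0.421 (adjusted p = 0.0879). Ndufa11 was also lost without Tg Foxo3+/- replicate 3 (adjusted p = 0.101) and without each of the Tg Foxo3-/- arrays (adjusted p = 0.0931 to 0.152).

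**Figure D5:**
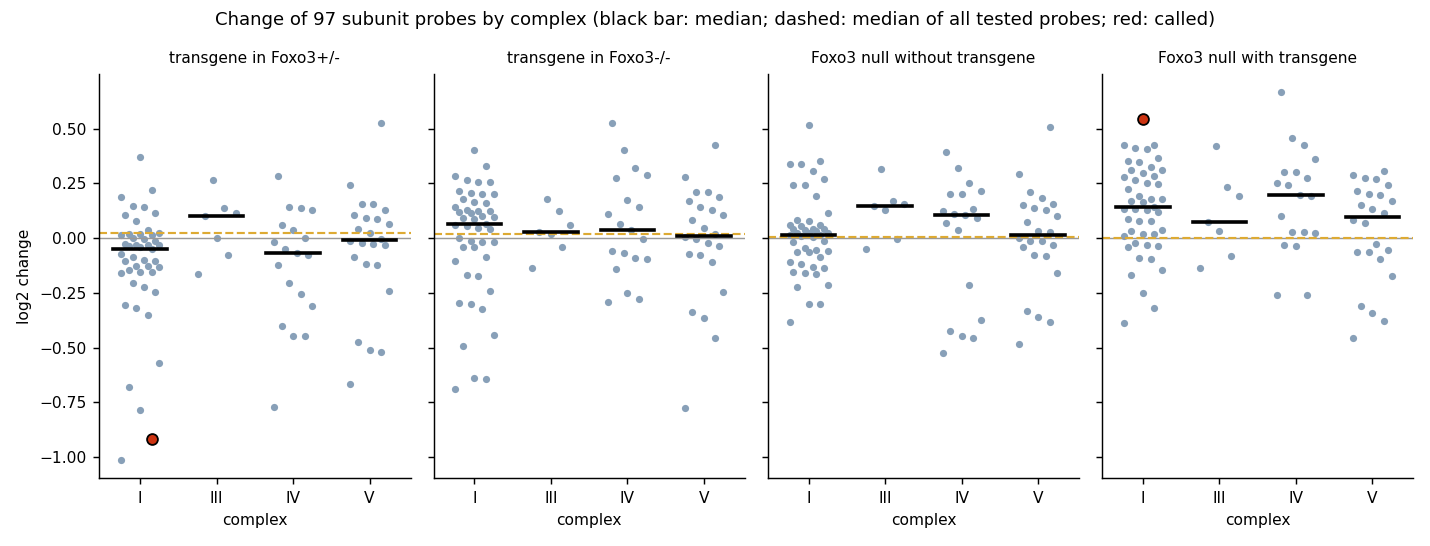
Log2 change of each of the 97 subunit probes in the 4 single comparisons, by complex, with black bars at each complex's median and a dashed line at the median of all tested probes. Ndufb9 (transgene in Foxo3+/-) and Ndufa11 (Foxo3 null with transgene) are the red called points, and the complex I and IV medians of 0.14 and 0.20 in the last panel include the low Tg Foxo3+/- array.

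Markers of other cell types moved with the Foxo3 genotype. In the averaged null effect, 6 of 12 oocyte marker probes were called higher and 0 lower, beside 4.13% and 4.22% of all tested probes. By direction, 10 of the 12 lay above 0 and 2 below (51.5% of all tested probes lay above 0). The sums given next weigh the brightest probes most. Summed oocyte marker intensity ranged from 88640 to 94350 in NoTg Foxo3+/-, from 82830 to 88660 in Tg Foxo3+/-, from 105800 to 116100 in NoTg Foxo3-/- and from 108000 to 112300 in Tg Foxo3-/-. Of 8 stroma marker probes, 5 were called lower in the null, and their sum ranged from 24530 to 30260 and from 24680 to 27980 in the heterozygous groups (NoTg, then Tg) and from 18620 to 20410 and from 17920 to 19800 in the null groups. No gene of either list was undetected on every array. The part of such shifts in the subunit changes was not tested, and in whole ovaries fewer cells of a type and less RNA per cell cannot be told apart. Surface epithelium markers gave 4 of 9 probes called lower in the null, with 9 of 9 below 0, and theca and steroidogenic markers 3 of 6, with 6 of 6 below 0. Granulosa markers gave 1 of 12 probes called lower in the null. Under the averaged transgene effect 0 of 12 oocyte probes were called, and 11 of 12 lay below 0 (42.2% of all tested probes did). In that effect 1 of 12 granulosa probes was called lower (Nr5a2) and 1 of 6 theca and steroidogenic probes higher (Cyp11a1). Of all tested probes, 2.94% were called lower and 0.111% higher. The surface epithelium and stroma lists gave 0 calls there.

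The difference between the transgene effects in nulls and heterozygotes, equal to the difference between the null effects with and without the transgene, was tested as an interaction. It called 0 of 97 subunit probes and 0% of all 22511 probes, the smallest adjusted p among the subunits being 0.994. At an unadjusted p under 0.05, 3 were higher and 1 lower, against 2.2% and 2.03% of all tested probes. These were Cox4i2 (log2 0.83, SE 0.32), Atp5h (0.43), Ndufs8, an iron-sulfur subunit of complex I (0.30), and Ndufb11 (-0.67). Ndufb9 came next at 0.47. The median over the subunits was 0.10, and -0.008 without Tg Foxo3+/- replicate 1. Above 0 lay 67 of 97 (49.6% of all tested probes), but 24 under median scaling, which moved the median of all tested probes to -0.229.

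Complex IV has subunit forms that are best known from muscle or testis, and several gave signal in the ovary. Cox4i2, the form of subunit 4 known from lung and from low oxygen, was detected on all 12 arrays and read 6.28, 6.32 and 6.34 in NoTg Foxo3+/-, 5.51, 6.01 and 6.49 in Tg Foxo3+/-, then 6.27, 5.45 and 6.09 in NoTg Foxo3-/- and 6.47, 6.40 and 6.51 in Tg Foxo3-/-. The low arrays were Tg Foxo3+/- replicate 1 and NoTg Foxo3-/- replicate 2, and no comparison called it. Cox4i1, its widely expressed counterpart, had means of 12.96 ± 0.08 in NoTg Foxo3+/-, 13.00 ± 0.23 in Tg Foxo3+/-, then 13.03 ± 0.11 in NoTg Foxo3-/- and 13.02 ± 0.12 in Tg Foxo3-/- (SD, n = 3 each). Cox7a1, the heart and skeletal muscle form of subunit 7a, was detected on 12 arrays and read 7.68, 7.49 and 7.38 in NoTg Foxo3+/-, 7.38, 7.87 and 7.73 in Tg Foxo3+/-, then 7.49, 7.38 and 7.03 in NoTg Foxo3-/- and 7.52, 7.60 and 7.74 in Tg Foxo3-/-. Cox6a2 and Cox8b, muscle forms as well, were detected on 11 and 5 arrays, with means of 5.23 and 4.88, close to the floor of the scale. Cox8c, a testis form, was detected on 11 arrays and read between 4.64 and 6.11, the lowest value in Tg Foxo3+/- replicate 1. Cox7b2, known from testis, was detected on 0 arrays. Of Cox4i2, Cox7a1, Cox6a2, Cox8b and Cox8c, 0 were called in any of the 7 comparisons, the smallest adjusted p being 0.266 for Cox6a2.

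Genes that serve the chain without matching its symbols were counted beside it. Complex II has 5 tested probes of 3 genes. Sdhd, a membrane anchor, was the 1 of these 5 probes called lower with the transgene in the average (-0.67, SE 0.14, adjusted p = 0.0143), beside 2.94% of all tested probes. In the averaged null effect 0 of the 5 were called. The cytochrome c probes, 3 of Cycs, gave 0 calls in either average. Of 49 assembly factor probes of 32 genes, 3 were lower with the transgene and 0 higher, beside 2.94% of all tested probes called lower. They were Ndufaf5 (-0.85, adjusted p = 0.000977) and Ndufaf2 (-0.46, adjusted p = 0.00479), which serve complex I, and Sco1 (-0.57, adjusted p = 0.0108), a copper chaperone of complex IV. In the null 1 of the 49 was higher, the copper chaperone Cox17 (0.45, adjusted p = 0.0459), and 1 lower, Cox11 (-0.42, adjusted p = 0.0423). Of all tested probes, 4.13% were called higher and 4.22% lower, so neither count exceeds that share.

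Of 16 regulator probes of 10 genes, Tfb1m, a mitochondrial rRNA methyltransferase, was the 1 called lower with the transgene (-0.39, adjusted p = 0.0201), beside 2.94% of all tested probes. In the null 4 of the 16 were higher, beside 4.13% of all tested probes. These were Tfb1m (0.31, adjusted p = 0.0368), both probes of Gabpb1, the partner subunit of the ETS factor GABP (0.37 and 0.32, adjusted p = 0.0186 and 0.0426), and Polrmt, the mitochondrial RNA polymerase (0.32, adjusted p = 0.0244). Of 29 probes for outer membrane and import genes, 2 were lower with the transgene (2.94% of all tested probes were), the receptor Tomm70a (-0.83, adjusted p = 0.00147) and the processing peptidase subunit Pmpcb (-0.81, adjusted p = 0.00158), and 0 were called in the averaged null effect. The medians of these lists in the averaged transgene effect were -0.09 for complex II, 0.01 for cytochrome c, 0.01 for assembly factors, 0.00 for regulators and 0.01 for import, beside 0.03 for all tested probes.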

How the data were processed

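Biotin-labelled cRNA of 12 ovary samples was hybridised to Illumina bead arrays, per the labels' protocols. The authors deposited raw intensity values for 45281 probes and a detection p-value for each of them, per the file headers, and a second table of normalized intensity values, whose method no label or header names. From the raw intensities, the background was corrected in limma 3.58.1 under R 4.3.3 (normexp from detection p-values, offset 16), followed by quantile normalization and log2. Probes detected (p under 0.05) on at least 3 arrays were fitted over all 4 groups (lmFit, eBayes with trend), with Benjamini-Hochberg adjustment over all 22511 of them. Fold changes are on the scale with the offset, which understates changes of dim probes. The number of arrays limits the precision. On simulated data for the averaged transgene effect over 22511 probes, 63% of changes of 0.6 and 97% of changes of 1 (log2) were recovered. The simulation changed 100 probes by each amount and drew independent normal noise with each probe's own spread. It held no array that stood apart and no background difference, so these rates may not hold for the real arrays.

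Of the probes, 34885 have 1 gene symbol in the platform annotation, 18 have several and 10378 none. No pair of arrays held identical values, and 0 table columns lacked a sample. Same-numbered replicates correlated over 0.1 in 6 of 18 pairs (-0.179 to 0.264), so the numbers were not taken to pair samples.

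Members and gene lists were chosen with earlier results of these data known. Named with values were all subunit probes called in any comparison, the 5 smallest p-values where none was called, the brightest probe of each complex, the 6 genes whose probes differed most in the averaged transgene effect, and subunit forms of muscle or testis; other genes named were chosen after their values were seen. Alternatives were another background step, median scaling, the authors' normalized values, 2 other filters, array weights, a block for the replicate number, fits of the compared groups alone, the array background as a covariate, and leaving out each array.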

Additional observations from a re-analysis of the deposited data

Results flagged for a closer look

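Ndufs8 (ILMN_2711734), an iron-sulfur subunit of complex I, moved in opposite directions with the transgene in the 2 Foxo3 genotypes, with no overlap in either. Among all tested probes, 7.84% were lower without overlap in heterozygotes and 8.79% higher without overlap in nulls. Among the 97 subunit probes, 12 were lower without overlap in heterozygotes and 12 higher in nulls. In heterozygotes the transgenic arrays read 11.57, 11.50 and 11.26 against 11.62, 11.67 and 11.66 (log2 change -0.21). In nulls they read 11.56, 11.61 and 11.59 against 11.54, 11.41 and 11.53 (log2 change 0.09). The difference between the effects was 0.3 on the log2 scale and was not called (limma, adjusted p = 0.994), and the lowest of the 12 values was that of Tg Foxo3+/- replicate 1.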

How the results depend on the processing

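No called log2 change changed sign under any alternative run, and the counts of calls were as reported without background correction and with the stricter filter. The subunit probes called in the transgene comparison of heterozygotes (1 as reported) numbered 0 with median scaling, the authors' normalized values, only the compared groups, or the array background as a covariate, and 5 with array weights. In the null with transgene (1) they numbered 0 with median scaling, the authors' values, no filter or the covariate, and 6 with weights. In nulls the transgene (0) gave 1 with only the compared groups and 3 with weights. The averaged transgene effect (5) gave 1 with median scaling, 9 with the authors' values, 11 with weights and 0 with the covariate. The averaged null effect (5) gave 2 with median scaling, 4 with no filter, 6 with weights (3 higher, 3 lower, Atp5h and Cox6c being new) and 0 with the covariate. The interaction's median (0.097) was -0.115 with median scaling and -0.036 with the authors' values, beside -0.229 and -0.093 over all tested probes. The median of the null without transgene (0.03) was 0.184 with median scaling, beside 0.139 over all tested probes. In each of these runs the subunit median stayed above that of all tested probes. The causes were not tested.

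With the replicate number as a block, the transgene comparison of heterozygotes called 0 and the averaged null effect 7 (6 higher, 1 lower). The other counts of calls were as reported.

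Leaving out each array gave 0 to 2 calls for the transgene in heterozygotes, 0 to 1 in nulls, 0 to 0 for the null without transgene, 0 to 2 with it, 5 to 8 for the averaged transgene effect (8 without Tg Foxo3+/- replicate 1), 3 to 7 for the averaged null effect (7 without Tg Foxo3+/- replicate 2) and 0 to 0 for the interaction. The medians ranged, in that order, from -0.123 to 0.047, 0.03 to 0.053, 0.006 to 0.068, 0.029 to 0.21, -0.008 to 0.058, 0.022 to 0.102 and -0.008 to 0.198. Dim probes near the detection limit, 9 of the 97 subunit probes being detected on 5 to 11 arrays, limit what small changes could show.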
